A study of Mus musculus with 24 samples.

Results

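KL001, a small molecule that stabilises cryptochromes, was compared with a DMSO control in mouse embryonic fibroblasts that had received siCTRL, the control small interfering RNA, and no Dexa. The series holds 24 libraries in 8 groups of 3, one for each combination of siRNA (siCTRL or siCop1, taken to be directed against Cop1), compound (DMSO or KL001) and Dexa (absent or present). The 6 libraries of interest were chosen by these labels alone: 3 of siCTRL with DMSO and 3 of siCTRL with KL001. All 24 libraries came from fibroblasts labelled wild type, and the labels give no age of the embryos, no cell passage, no dose and no exposure time. They do not say whether the 3 replicates were separate cultures, so that p-values measure the spread between these samples, which may be technical.

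Cryptochromes (Cry1, Cry2) and period proteins (Per1 to Per3) are the repressor arm of the circadian clock. They inhibit the CLOCK:BMAL1 activator, encoded by Clock and Arntl with Npas2 as a substitute for Clock, which acts at E-box sequences in the promoters of Per, Cry, Nr1d1, Dbp and other genes. A second loop is formed by the repressors REV-ERB alpha and beta (Nr1d1, Nr1d2) and the ROR activators, which compete for RORE sequences in genes such as Arntl, Npas2 and Cry1. In fibroblasts the same clock runs cell by cell, and Cop1 (listed under its older symbol Rfwd2) encodes the part that picks the substrates of a CRL4 ubiquitin ligase, named in the title of the series beside the cryptochromes.

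Of 47480 listed genes, 14772 passed a filter on low counts. They were tested with the quasi-likelihood test of edgeR, and p-values were adjusted over all of them by the Benjamini-Hochberg method. At an adjusted p below 0.05, 476 genes were higher with KL001 (3.22% of those tested) and 518 were lower (3.51%), together 994 genes (6.73%). Most of these changes were small. The median absolute log2 change of the 994 genes was 0.20, 93 of them moved by at least 1.5-fold and 26 (0.176% of those tested) by at least 2-fold, of which 6 were higher and 20 lower. Without DMSO replicate 3 the test called 653 genes, the fewest when 1 library was left out. When the spread was estimated from the 6 libraries alone it called 225 genes, 67 higher and 158 lower. The 6 libraries held 24244232 to 27875023 counts and 20066 to 20869 genes with a count. Cop1, which siCTRL should leave in place, was measured at 29.7, 28.6 and 26.9 CPM (counts relative to the library total, with TMM scaling) in the DMSO libraries and at 28.7, 26.2 and 28 CPM in the KL001 libraries. Across the siCop1 libraries of the series Cop1 lay at 4.33 to 5.79 CPM.

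**Figure D1:**
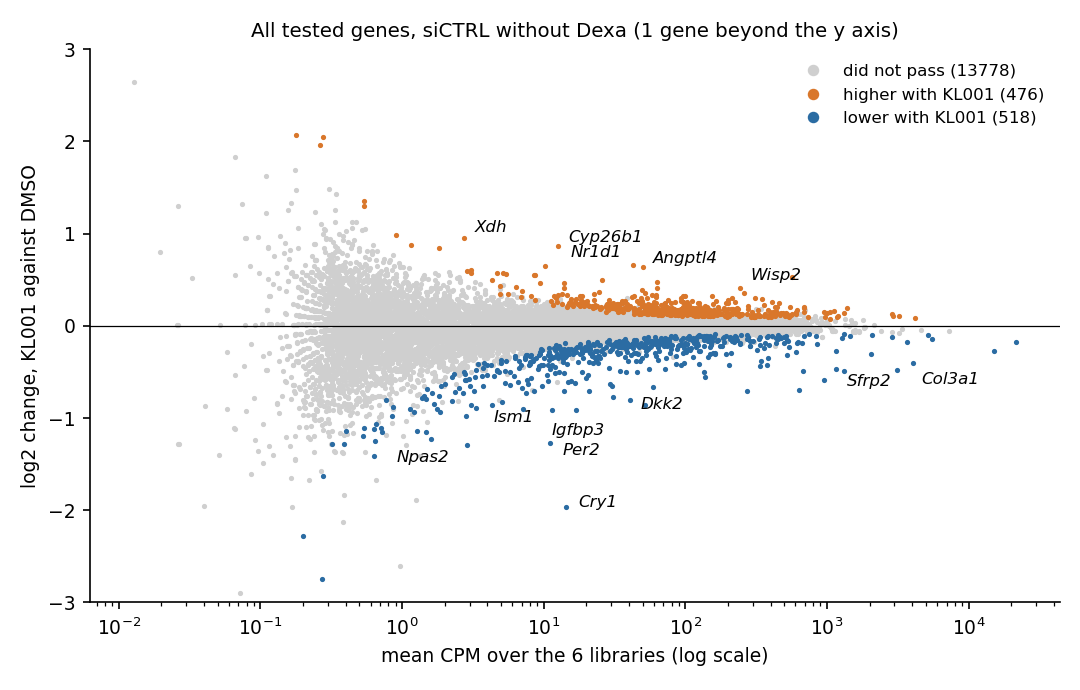
Each point is 1 of the 14772 tested genes, with its mean CPM over the 6 libraries on a log axis and its log2 change between KL001 and DMSO, each from 3 libraries. Orange points (476) passed the test as higher, blue points (518) as lower and grey points did not pass, and Cry1 at a log2 change of -1.97 lies apart from the other genes of its level.

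Before the single genes, 2 of the 6 libraries need to be named. In DMSO replicate 1 and KL001 replicate 2 the counts fell with transcript length relative to the other libraries, with slopes of -0.045 and -0.076 log2 units per doubling of length, against -0.013 to 0.031 in the other 4. The same libraries held the most heart muscle RNA: 15 markers such as Myh6, Tnnt2 and Actc1 summed to 85.2 CPM in DMSO replicate 1 and to 113 CPM in KL001 replicate 2, against 29.0 and 39.8 CPM in the other DMSO libraries and 9.75 and 10.1 CPM in the other KL001 libraries, and none of the 15 was at 0 in all 6. Leaving out both libraries therefore leaves groups whose heart muscle RNA does not overlap, lower with KL001. Counts called without both libraries are given beside the main gene groups below, and the part of heart muscle RNA in the results was not tested. Fibroblast markers summed over 14 genes to 55668 to 59052 CPM in the DMSO libraries and to 48684 to 53306 CPM in the KL001 libraries. Most of this sum came from the collagen genes Col1a1 (18642 to 23502 CPM over the 6 libraries) and Col1a2 (13416 to 16934 CPM). The fibroblast markers Dcn (3.02 to 4.58 CPM) and Lum (0.696 to 1.67 CPM) were low in all 6. Of these 14 markers 4 fell, 3 of them collagens described below and the fourth the growth factor receptor Pdgfra (log2 change -0.35, SE 0.060, adjusted p = 0.000471). Among all tested genes 3.51% fell.

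Among called genes with a mean of at least 1 CPM the largest changes in either direction were those of the clock genes Cry1, Npas2 and Per2. The promoters of Cry1, of the clock repressor that rose most and of the activator Arntl are shown with the clock motifs found in them. Windows span 250 bases before to 50 after the annotated start, from RefSeq on GRCm38.p6, read 5′ to 3′ on the gene's strand, and capitals mark the motif. Cry1 (chr10:85185005-85185304, minus strand) holds the E-box CACGTG and, on the other strand, the E'-box CACGTT. Nr1d1 (chr11:98775328-98775627, minus strand) holds an E'-box on the other strand, and Arntl (chr7:113207261-113207560, plus strand) holds the RORE TAGGTCA.
Cry1: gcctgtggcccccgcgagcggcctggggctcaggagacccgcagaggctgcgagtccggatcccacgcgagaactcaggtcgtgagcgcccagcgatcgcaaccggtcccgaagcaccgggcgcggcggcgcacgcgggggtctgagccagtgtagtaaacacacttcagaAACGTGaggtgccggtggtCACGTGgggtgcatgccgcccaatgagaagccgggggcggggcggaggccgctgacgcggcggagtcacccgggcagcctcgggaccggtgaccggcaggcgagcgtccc
Nr1d1: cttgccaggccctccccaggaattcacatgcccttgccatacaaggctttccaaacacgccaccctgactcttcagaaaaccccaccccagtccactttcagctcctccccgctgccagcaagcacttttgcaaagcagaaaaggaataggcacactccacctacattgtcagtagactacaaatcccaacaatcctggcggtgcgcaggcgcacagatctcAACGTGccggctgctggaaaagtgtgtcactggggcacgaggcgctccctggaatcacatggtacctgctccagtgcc
Arntl: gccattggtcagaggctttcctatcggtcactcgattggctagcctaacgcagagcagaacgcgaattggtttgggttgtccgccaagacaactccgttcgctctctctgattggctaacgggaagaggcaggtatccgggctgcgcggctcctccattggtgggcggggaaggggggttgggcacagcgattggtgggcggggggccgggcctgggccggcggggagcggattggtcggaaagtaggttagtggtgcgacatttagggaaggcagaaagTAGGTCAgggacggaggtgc
Both strands of all 32851 promoter windows of this length were searched, with no overlap between these motifs. CACGTG was found in 7.15% of the windows, CACGTT in 4.68% and TAGGTCA in 2.61%. Of the 11 clock repressor genes 9 were matched to 10 windows, of which 4 held CACGTG and 3 CACGTT. Among the clock activators 6 genes were matched to 10 windows, and 1 of these held TAGGTCA, the Arntl window shown. The motifs also occurred across the lists: 1 repressor window held TAGGTCA, and 1 activator window held CACGTT and 0 held CACGTG. Arntl has at least 1 further window, which is not shown and does not hold TAGGTCA. A match describes the letters of the window and shows no binding.

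Among the clock repressors both cryptochrome genes and all 3 period genes fell with KL001, and both REV-ERB genes rose. Of 11 repressor genes 6 were lower and 2 higher, with a median log2 change of -0.19, where the median of all tested genes was -0.0026. Among all tested genes 3.51% were lower and 3.22% higher. When the spread was estimated from the 6 libraries alone, 4 were lower and 1 higher. Per1, Bhlhe40 and Nr1d2 did not pass in that fit (edgeR adjusted p = 0.103, 0.105 and 0.123). Cry1 (chr10:85131700-85185064, minus strand) was measured at 22.9, 22.7 and 22.6 CPM with DMSO and at 5.90, 5.10 and 6.42 CPM with KL001. The groups lay far apart, with no overlap (log2 change -1.97, SE 0.070, adjusted p = 5.60e-18). A fall without overlap between the 3 DMSO and 3 KL001 libraries was seen in 9.51% of all tested genes and a rise without overlap in 8.9%. Per2 (chr1:91415982-91459324, minus strand), the period gene with the largest change, went from 14.1, 16.4 and 16.6 CPM to 7.85, 5.06 and 6.50 CPM without overlap (log2 change -1.27, SE 0.10, adjusted p = 1.01e-09). Cry2, the second cryptochrome, went from 40.2, 41.8 and 39.8 to 30.2, 27.8 and 28.5 CPM (log2 change -0.49, SE 0.047, adjusted p = 2.31e-08). Per3 went from 41.6, 47.4 and 45.2 to 37.0, 32.2 and 33.7 CPM (log2 change -0.38, SE 0.065, adjusted p = 0.000306) and Per1 from 40.3, 41.8 and 41.8 to 37.6, 35.3 and 35.0 CPM (log2 change -0.20, SE 0.039, adjusted p = 0.00158). Within each family the smaller changes were those of Cry2, Per1 and Per3, and the 3 values of each group did not overlap for any of the 5 genes.

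Nr1d1 (chr11:98767932-98775333, minus strand), which encodes REV-ERB alpha, moved the other way. It was measured at 32.8, 34.9 and 31.5 CPM with DMSO and at 54.8, 52.7 and 49.2 CPM with KL001, with every KL001 library above every DMSO library (log2 change 0.66, SE 0.046, adjusted p = 4.90e-11). Its relative Nr1d2 went from 59.2, 64.2 and 64.2 to 71.2, 67.2 and 80.2 CPM (log2 change 0.22, SE 0.056, adjusted p = 0.0121), and did not pass without DMSO replicate 1 (adjusted p = 0.0733) or without KL001 replicate 3 (adjusted p = 0.126). Bhlhe40, which encodes the E-box repressor DEC1, was slightly lower (log2 change -0.19, SE 0.047, adjusted p = 0.00920), with an adjusted p of 0.0872 when DMSO replicate 1 and KL001 replicate 2 were both left out. The remaining repressor genes Ciart, Bhlhe41 and Nfil3 did not pass, with log2 changes of -0.027, -0.021 and -0.12.

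Of 7 activator genes 2 fell and none rose, with a median log2 change of -0.23, where 3.51% of all tested genes fell. Arntl (chr7:113207465-113314126, plus strand), which encodes BMAL1, was measured at 35.9, 36.0 and 35.7 CPM with DMSO and at 22.7, 21 and 25.8 CPM with KL001 (log2 change -0.63, SE 0.063, adjusted p = 4.93e-08). The 3 DMSO values were nearly equal and all lay above the KL001 values. Npas2, which encodes a partner of BMAL1, went from 4.33, 4.55 and 3.42 CPM to 1.86, 1.48 and 1.66 CPM (log2 change -1.29, SE 0.15, adjusted p = 1.18e-06). Clock itself did not pass, with 77.6, 92.5 and 91.1 CPM against 93.6, 71.5 and 87.0 CPM and overlapping groups. Arntl2 and the ROR genes Rora and Rorb did not pass either, with log2 changes between -0.39 and -0.083, and Rorb was below 1 CPM in every library.

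The 3 PAR bZIP output factors, which are transcribed from E-boxes and drive D-box genes, all fell, where 3.51% of all tested genes fell. Dbp went from 39.3, 35.9 and 36.1 to 21.4, 25.4 and 24.2 CPM (log2 change -0.65, SE 0.067, adjusted p = 6.49e-08). Tef went from 216, 211 and 216 to 179, 166 and 177 CPM (log2 change -0.30, SE 0.030, adjusted p = 2.99e-08), a small change without overlap. Hlf went from 3.14, 1.68 and 2.07 to 1.63, 1.36 and 1.12 CPM (log2 change -0.76, SE 0.20, adjusted p = 0.0180), and did not pass without DMSO replicate 1 (adjusted p = 0.205), without KL001 replicate 3 (0.104) or without both DMSO replicate 1 and KL001 replicate 2 (0.334). Hlf also did not pass with the spread of the 6 libraries alone (adjusted p = 0.178), where 2 of the 3 factors were lower. A further list of 9 genes held Timeless beside ligases, proteases and kinases that act on clock proteins. Of these 9 genes 8 did not pass, including Csnk1d (log2 change -0.026) and Csnk1e (0.0029), the casein kinases of period proteins, and Usp7 (0.022). Timeless passed as higher by a narrow margin (log2 change 0.14, SE 0.042, adjusted p = 0.0449), and its adjusted p rose to between 0.0585 and 0.155 when any library other than KL001 replicate 3 was left out. It was 0.0636 in DESeq2 and 0.0962 with no filter on low counts.

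**Figure D2:**
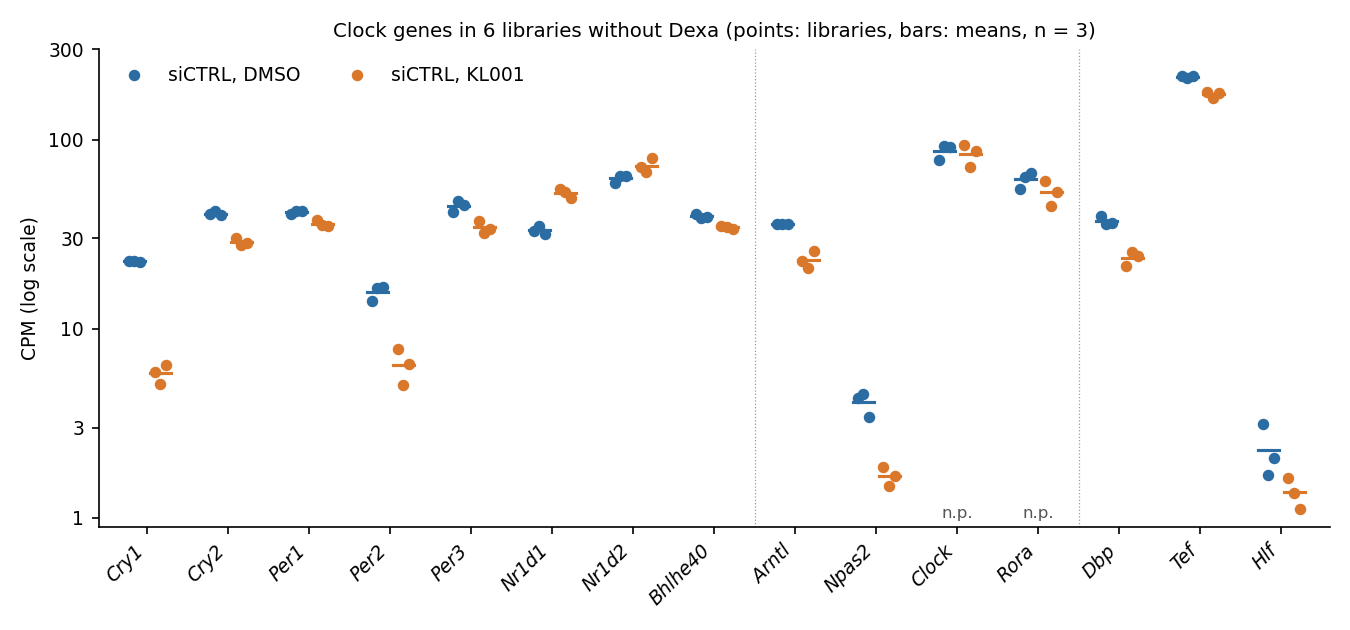
CPM of 15 clock genes on a log axis in each of the 6 libraries (points) with group means (bars), for siCTRL with DMSO in blue and with KL001 in orange; dotted lines part the repressors, the activators and receptors, and the output factors. Cry1, Per2 and Npas2 show the widest gaps between the groups, Nr1d1 and Nr1d2 lie above their DMSO levels, and Clock and Rora (n.p.) did not pass the test. Clock genes left out of the figure include Ciart, Bhlhe41, Nfil3, Arntl2 and Rorb, none of which passed.

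Among the genes that rose most were several for enzymes and secreted proteins. The 12 genes with the largest rise, a mean of at least 1 CPM and no overlap between groups included Nr1d1 and the following. Xdh, which encodes xanthine dehydrogenase, an enzyme of purine breakdown, was measured at 2.20, 1.56 and 1.79 CPM with DMSO and at 3.96, 3.99 and 2.90 CPM with KL001 (log2 change 0.95, SE 0.14, adjusted p = 4.81e-05). Cyp26b1, which encodes an enzyme that degrades retinoic acid, went from 8.62, 9.26 and 9.10 to 16.1, 16.5 and 16.4 CPM (log2 change 0.86, SE 0.078, adjusted p = 7.33e-09). The values of Cyp26b1 were close within each group and far apart between the groups. Angptl4, which encodes an inhibitor of lipoprotein lipase, went from 40.0, 39.5 and 38.3 to 57.5, 63.6 and 62.4 CPM (log2 change 0.64, SE 0.047, adjusted p = 1.63e-10), and Gfra1, a co-receptor for a glial growth factor, from 7.36, 8.08 and 8.66 to 12.7, 12.7 and 12.3 CPM (log2 change 0.65, SE 0.079, adjusted p = 1.65e-06). Lipg, which encodes endothelial lipase, rose by 0.58 log2 units. Ppef1 (0.84) did not pass without DMSO replicate 3 (adjusted p = 0.0609). The chemokine gene Cxcl10 (0.88), Gdap1l1 (0.60), Mei4 (0.60) and Ostn (0.57) each lost the call when one of several libraries was left out. Their adjusted p reached 0.115 for Cxcl10 without DMSO replicate 1, and 0.0756, 0.249 and 0.13 for Gdap1l1, Mei4 and Ostn without DMSO replicate 3. Mei4 did not pass in DESeq2 either (adjusted p = 0.0564).

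The 12 genes that fell most by the same rule were led by Cry1, Npas2 and Per2. Igfbp3, which encodes a binding protein of insulin-like growth factors, went from 23.1, 21 and 22.5 CPM to 13, 11.6 and 10.7 CPM (log2 change -0.91, SE 0.091, adjusted p = 6.49e-08). Ism1, which encodes the secreted protein isthmin 1, went from 15.9, 14.6 and 14.5 to 8.47, 7.73 and 7.77 CPM (log2 change -0.91, SE 0.074, adjusted p = 9.53e-10). In both genes every KL001 library lay well below every DMSO library. The others were low, with means of 1.48 to 3.75 CPM with DMSO and of 0.787 to 1.89 CPM with KL001. They were the cation channel gene Trpm5 (log2 change -1.23), the orphan receptor gene Gprc5c (-0.98), the cytochrome gene Cyp4f14 (-0.93), the cartilage matrix genes Cilp2 (-1.15) and Matn4 (-0.90), the glutamate receptor subunit gene Grin3a (-1.14) and the RNA-binding protein gene Celf5 (-0.93). Cilp2 did not pass without DMSO replicate 2 (adjusted p = 0.0655), and Grin3a (0.0597) and Celf5 (0.0993) did not pass without DMSO replicate 3. Matn4 did not pass when any library other than DMSO replicate 1 was left out, with an adjusted p up to 0.139, reached without DMSO replicate 2. The largest fitted change among the genes called, that of Serpinb2, was named after its values were seen. It was measured at 0.0721, 0.126 and 0.0794 CPM with DMSO and at 3.53, 0.0411 and 1.55 CPM with KL001, so that the groups overlapped and the call (log2 change 4.16, adjusted p = 0.0129) rests on KL001 replicates 1 and 3.

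Genes of cholesterol synthesis and uptake rose together by a small amount. They are controlled by the transcription factor SREBP2, encoded by Srebf2, which binds sterol response elements when cell sterol is low. Of 23 genes of this list 19 were higher and none lower, with a median log2 change of 0.24, where 3.22% of all tested genes were higher. The promoter of Hmgcs1, an early enzyme of the pathway, is shown because it holds the sterol response element TCACNCCAC (capitals), which was found on either strand in 1.24% of the 32851 windows (chr13:119690101-119690400, plus strand, RefSeq on GRCm38.p6). Of the 23 genes 15 were matched to 18 windows, and 1 of these held the motif. Among these 18 windows 4 held the E-box CACGTG and 2 the RORE TAGGTCA. Hmgcs1 was named after its values were seen.
Hmgcs1: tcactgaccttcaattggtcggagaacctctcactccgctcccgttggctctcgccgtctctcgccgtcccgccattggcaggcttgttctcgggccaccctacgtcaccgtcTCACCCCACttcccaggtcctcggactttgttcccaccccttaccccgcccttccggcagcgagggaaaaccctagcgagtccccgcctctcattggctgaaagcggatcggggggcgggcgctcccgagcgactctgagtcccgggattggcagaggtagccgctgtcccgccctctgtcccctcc
Hmgcs1 was measured at 302, 319 and 321 CPM with DMSO and at 395, 358 and 398 CPM with KL001 (log2 change 0.29, SE 0.039, adjusted p = 1.01e-05). The 3 genes of the list with the largest rise encode enzymes and a regulator. Fdps, farnesyl diphosphate synthase, went from 20.7, 21.8 and 21.6 to 25.8, 29.5 and 27.7 CPM (log2 change 0.37, SE 0.057, adjusted p = 6.21e-05). Msmo1, a sterol demethylase, went from 237, 220.3 and 225 to 283, 291 and 299.7 CPM (log2 change 0.36, SE 0.030, adjusted p = 2.04e-09). Insig1, which encodes a protein that holds SREBP in the endoplasmic reticulum, went from 89.5, 91.1 and 85.6 to 114, 109.9 and 110.2 CPM (log2 change 0.33, SE 0.034, adjusted p = 6.88e-08). For these 4 genes all KL001 libraries lay above all DMSO libraries. The squalene epoxidase gene Sqle (0.26), named for its role, also rose. The 23 log2 changes ranged from -0.41 to 0.37. Among the genes that did not pass were Pmvk, Ebp and Idi1, with log2 changes of -0.069, 0.0067 and 0.19. The count stayed at 16 to 19 when any 1 library was left out and was 18 without DMSO replicate 1 and KL001 replicate 2. It was 19 with the length and GC correction described below and 12 when the spread was estimated from the 6 libraries alone.

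Fatty acid synthesis followed with fewer genes: 6 of 13 rose and none fell, with a median log2 change of 0.095. The share that rose among all tested genes was 3.22%. Fasn, fatty acid synthase, went from 385, 423 and 428 to 515, 458 and 455 CPM (log2 change 0.21, SE 0.045, adjusted p = 0.00428), and the elongase gene Elovl6 from 105, 113 and 115 to 133, 118 and 129 CPM (log2 change 0.19, SE 0.043, adjusted p = 0.00493). Their KL001 values lay above their DMSO values, in both genes with KL001 replicate 1 as the highest. Pparg, which encodes a nuclear receptor of fat cell differentiation, rose as well (log2 change 0.33, SE 0.076, adjusted p = 0.00613), but not without DMSO replicate 2 (adjusted p = 0.0613). Srebf1, the gene of the factor that controls this pathway, did not pass (log2 change 0.086), while Srebf2 did (0.13). When the spread came from the 6 libraries alone edgeR called 0 of the 13, with 7 higher at an unadjusted p below 0.05, while DESeq2 on all libraries called 6.

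Most genes for collagens and many for elastic fibres, the structural matrix that fibroblasts lay down, fell. Of 17 collagen genes 13 were lower and 1 higher, with a median log2 change of -0.18, and of 21 elastic fibre genes 11 were lower and 2 higher, with a median of -0.13, where 3.51% of all tested genes were lower. Col3a1, a chain of type III collagen, was measured at 4508, 4547 and 4701 CPM with DMSO and at 3682, 3266 and 3435 CPM with KL001 (log2 change -0.41, SE 0.036, adjusted p = 1.37e-08). The groups were separated by more than the spread within either. Col12a1 went from 1420.0, 1595 and 1623 to 1217, 970.4 and 1112 CPM (log2 change -0.49, SE 0.076, adjusted p = 0.000495). Col1a1 and Col1a2, the chains of type I collagen, fell by less, with log2 changes of -0.18 and -0.27, and were named for their role. Col15a1, at about 1 CPM, passed (-0.88) but not when any library other than DMSO replicate 2 was left out (adjusted p up to 0.129, reached without DMSO replicate 3) or with no filter on low counts (0.0593). Col18a1, which encodes a basement membrane collagen, was the collagen gene that rose (log2 change 0.16, SE 0.039, adjusted p = 0.00921), but not without DMSO replicate 2 (adjusted p = 0.0735) or without KL001 replicate 1 (0.0536). The 13 collagens lower became 8 without DMSO replicate 3, 8 without KL001 replicate 3 and 8 without DMSO replicate 1 and KL001 replicate 2. With the length and GC correction 12 collagens and 11 elastic fibre genes were lower, and with the spread of the 6 libraries alone 6 of each.

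Among elastic fibre genes, Eln, which encodes elastin itself, went from 25.5, 24.6 and 21 to 15.7, 16.6 and 16.0 CPM (log2 change -0.56, SE 0.082, adjusted p = 3.29e-05). Ltbp2, which encodes a microfibril protein, went from 154, 160.4 and 159 to 116, 108 and 111 CPM (log2 change -0.50, SE 0.033, adjusted p = 1.46e-11). In both genes the groups did not overlap. Mfap4, a microfibril protein gene at about 5 CPM (-0.49), did not pass when any 1 library was left out (adjusted p 0.0512 without KL001 replicate 2 to 0.124 without DMSO replicate 1). Loxl4, which encodes a collagen and elastin crosslinking enzyme, rose (log2 change 0.24, SE 0.044, adjusted p = 0.000471), and Fbln2 rose by 0.11, though not without DMSO replicate 1 (adjusted p = 0.0558). The 11 lower elastic fibre genes were 9 without DMSO replicate 1 and KL001 replicate 2 and 7 without KL001 replicate 3.

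Of 17 matrix protease and inhibitor genes 4 fell and 1 rose, with a median log2 change of -0.090. Over all tested genes 3.51% fell and 3.22% rose. The 3 with the largest fall belong to the ADAMTS proteases. Adamts9 went from 20.6, 22.1 and 23.2 to 17.4, 13.3 and 15.9 CPM (log2 change -0.50, SE 0.076, adjusted p = 5.60e-05), Adamts4 changed by -0.39 and Adamts1 by -0.28. Timp3, a protease inhibitor gene, rose by 0.21, though not without DMSO replicate 1 (adjusted p = 0.0527). Of 13 smooth muscle contractile genes 3 fell slightly: Cnn1 (-0.21), Acta2 (-0.12), which marks myofibroblasts, and Actg2 (-0.16). Actg2 did not pass without DMSO replicate 3 (adjusted p = 0.143), nor without DMSO replicate 2, KL001 replicate 1 or KL001 replicate 3 (0.0553, 0.13 and 0.0919). The length and GC correction gave 6 lower smooth muscle genes, and with the spread of the 6 libraries alone edgeR called 0, with 4 lower at an unadjusted p below 0.05, while DESeq2 on all libraries called 4.

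Of 22 regulators and readouts of TGF-beta, BMP and Wnt signalling 7 fell and 1 rose, with a median log2 change of -0.11. The shares over all tested genes were 3.51% lower and 3.22% higher. Dkk2, which encodes a Wnt antagonist, was measured at 49.7, 51.8 and 53.3 CPM with DMSO and at 29.4, 26.6 and 32.3 CPM with KL001 (log2 change -0.81, SE 0.059, adjusted p = 1.17e-10). Sfrp2, which encodes a secreted Wnt-binding protein, went from 1358, 1341 and 1348 to 1003, 971 and 942 CPM (log2 change -0.47, SE 0.033, adjusted p = 4.81e-11). Grem1, which encodes a BMP antagonist, went from 177, 176 and 182 to 149, 132 and 151 CPM (log2 change -0.30, SE 0.043, adjusted p = 1.90e-05). In these 3 genes no KL001 value reached a DMSO value. Wisp2, a matricellular protein gene, was the member that rose, from 213, 207 and 203 to 275, 287 and 265 CPM (log2 change 0.41, SE 0.036, adjusted p = 4.46e-09). The count of lower genes was also 7 without DMSO replicate 1 and KL001 replicate 2. In the insulin-like growth factor axis 2 of 12 genes fell, Igfbp3 and Igfbp7 (log2 change -0.18, SE 0.049, adjusted p = 0.0217). Igfbp7 did not pass without DMSO replicate 1 (adjusted p = 0.149) or without KL001 replicate 1 (0.116).

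**Figure D3:**
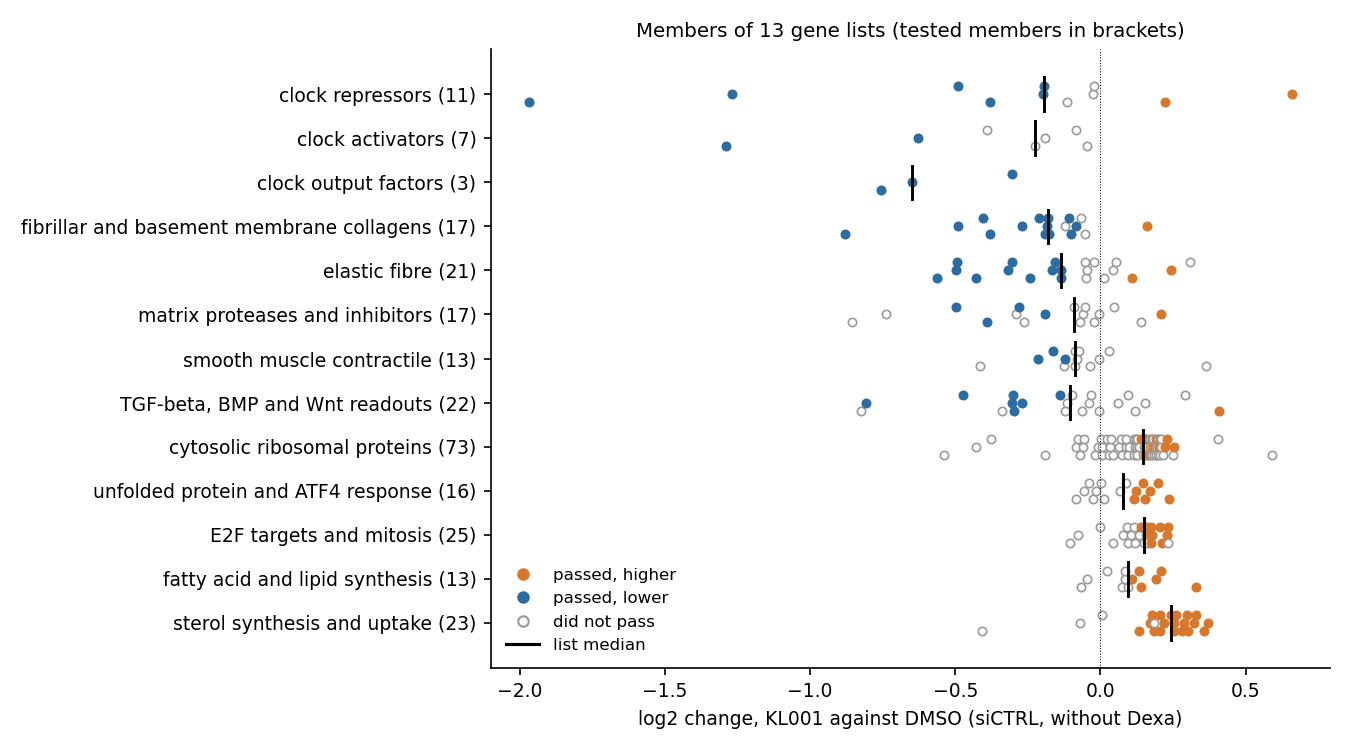
Log2 change between KL001 and DMSO of every tested member of 13 gene lists, with members that passed as higher in orange, as lower in blue and the others open; black bars are list medians and the number of tested members stands in brackets. Sterol genes lie right of 0 with a median of 0.24, and collagens (-0.18) and elastic fibre genes (-0.13) lie left of it.

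Several genes of DNA replication rose by a small amount. Of 25 E2F targets and mitosis genes 10 were higher and none lower, with a median log2 change of 0.15. Among all tested genes 3.22% were higher. Cdt1, a licensing factor gene, went from 45.3, 46.2 and 48.3 to 53.9, 57.9 and 52.3 CPM (log2 change 0.23, SE 0.045, adjusted p = 0.00122). Mcm5, a subunit gene of the replicative helicase, went from 91.0, 93.1 and 91.9 to 107, 114 and 103 CPM (log2 change 0.23, SE 0.041, adjusted p = 0.000547), and Pcna, the polymerase clamp gene, from 48.2, 47.7 and 49.1 to 53.2, 56.8 and 57.9 CPM (log2 change 0.21, SE 0.051, adjusted p = 0.00814). Their KL001 values lay above all DMSO values. Pcna did not pass without KL001 replicate 3 (adjusted p = 0.0520), and without DMSO replicate 1 and KL001 replicate 2 the list had 8 calls, with Cdt1 at 0.0517 and Pcna at 0.0593. With the spread of the 6 libraries alone it had 2 calls. The mitotic genes Mki67 (log2 change 0.044), Top2a (0.078), Ccnb1 (-0.00092) and Cdk1 (0.094), named for their role, did not pass. Ccnd1, which encodes cyclin D1, went from 413, 429 and 419.6 to 509, 504 and 490.1 CPM (log2 change 0.25, SE 0.032, adjusted p = 2.82e-06), and the chromatin protein gene Hmga2 from 206, 204 and 203 to 246, 236 and 251 CPM (log2 change 0.26, SE 0.031, adjusted p = 9.32e-07). Both belong to a list of 28 ETS and AP-1 factors and their targets, of which the third gene that rose, Ets2 (0.15), did not pass without DMSO replicate 1, DMSO replicate 2 or KL001 replicate 2 (adjusted p = 0.0863, 0.109 and 0.0808). A list of 11 genes, mainly D cyclins and kinase inhibitors, also holds the transcription factor gene Myc but not Ccnd1. Myc was its only member that rose (log2 change 0.20, SE 0.041, adjusted p = 0.00248), with an adjusted p of 0.0546 without DMSO replicate 1 and KL001 replicate 2. With the spread of the 6 libraries alone Myc did not pass (edgeR adjusted p = 0.101).

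Amino acid and stress genes under ATF4 rose in part. Of 16 genes of the unfolded protein and ATF4 response 7 were higher and none lower, with a median log2 change of 0.077. The share higher over all tested genes was 3.22%. The 7 were Psat1, Phgdh and Asns of amino acid synthesis, the transcription factor genes Atf4 and Atf3, Chac1, which encodes an enzyme of glutathione breakdown, and Herpud1 of protein degradation at the endoplasmic reticulum. Psat1, an enzyme gene of serine synthesis, went from 506, 508 and 512 to 574, 594 and 585 CPM (log2 change 0.20, SE 0.025, adjusted p = 3.16e-06), with every KL001 library above every DMSO library. Atf3 rose by 0.24 and Phgdh, the first enzyme gene of serine synthesis, by 0.17. Phgdh did not pass without DMSO replicate 3 (adjusted p = 0.0600) or without KL001 replicate 2 (0.0882). The chaperone genes Hspa5 (0.0011) and Hsp90b1 (-0.056), which report stress of the endoplasmic reticulum, did not pass. The count of 7 became 4 without KL001 replicate 2 and 3 without both DMSO replicate 1 and KL001 replicate 2. With the spread of the 6 libraries alone it was 1, and with the length and GC correction 8 were higher and 2 lower. Trib3, a pseudokinase gene controlled by ATF4 and listed with the Cop1 ligase, rose (log2 change 0.18, SE 0.036, adjusted p = 0.00122), and its relative Trib2 fell (log2 change -0.20, SE 0.041, adjusted p = 0.00217). Neither passed with the spread of the 6 libraries alone (edgeR adjusted p = 0.0806 and 0.102).

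Of 73 cytosolic ribosomal protein genes 13 were higher and none lower, with a median log2 change of 0.15. Over all tested genes 3.22% were higher. Rps19 went from 101, 90.2 and 90.4 to 103, 125 and 108 CPM (log2 change 0.25, SE 0.055, adjusted p = 0.00411), and Rpl14 rose by 0.22. KL001 replicate 2 held the highest value of both. These genes are short, with a median longest transcript of 1109 bases against 3223 for all tested genes, and have many processed pseudogenes among which reads can be split. Their count depended on single libraries: 4 without DMSO replicate 3, 4 without KL001 replicate 2, 8 without DMSO replicate 2, 22 without DMSO replicate 1 and 23 without KL001 replicate 1. It was 11 without DMSO replicate 1 and KL001 replicate 2 and 23 with the length and GC correction. With the spread of the 6 libraries alone edgeR called 0, with 29 higher at an unadjusted p below 0.05, while DESeq2 on all libraries called 19. Rpl14 did not pass without both DMSO replicate 1 and KL001 replicate 2 (adjusted p = 0.128). Of 49 respiratory chain genes Uqcrq alone passed (log2 change 0.18, SE 0.056, adjusted p = 0.0485), and not when any library other than KL001 replicate 3 was left out (adjusted p 0.0555 to 0.248, the latter without KL001 replicate 2). The share of respiratory chain genes that were higher lay below the 3.22% of all tested genes.

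In several further groups single genes moved. Of 18 glucocorticoid response genes 4 rose and 1 fell in these cells without Dexa, with a median log2 change of -0.0051. Beside this list and those that follow, 3.22% of all tested genes rose and 3.51% fell. Tsc22d3, a glucocorticoid-induced gene, went from 98.0, 101 and 101 to 87.6, 87.6 and 86.5 CPM (log2 change -0.20, SE 0.032, adjusted p = 9.10e-05), while Angptl4 (above), Ddit4 (0.25) and the metallothionein genes Mt1 (0.31) and Mt2 (0.41) rose. Mt1 did not pass without DMSO replicate 2, DMSO replicate 3 or KL001 replicate 2 (adjusted p = 0.0810, 0.128 and 0.145), and Mt2 not when any library other than KL001 replicate 1 was left out (up to 0.166, without KL001 replicate 2) or with the length and GC correction (0.0742). Mt1 also did not pass with the spread of the 6 libraries alone (edgeR adjusted p = 0.106). The receptor gene Nr3c1 (log2 change -0.010) and Fkbp5 (-0.057), named for their role, did not pass. Of 10 aryl hydrocarbon receptor and xenobiotic genes Xdh and Cyp1b1 (log2 change 0.20, SE 0.046, adjusted p = 0.00698) rose and the receptor's repressor Ahrr fell (log2 change -0.25, SE 0.054, adjusted p = 0.00365, and adjusted p = 0.0524 without DMSO replicate 1 and KL001 replicate 2). Cyp1b1 and Ahrr did not pass with the spread of the 6 libraries alone (edgeR adjusted p = 0.109 and 0.0937). Of 15 NRF2 target and regulator genes 4 rose, among them the ferritin gene Fth1 (log2 change 0.19, SE 0.041, adjusted p = 0.00448), the cystine transporter gene Slc7a11 (log2 change 0.30, SE 0.074, adjusted p = 0.0129) and Hmox1 (log2 change 0.13, SE 0.035, adjusted p = 0.0190). This count fell to 1 without DMSO replicate 1, 2 without KL001 replicate 2 and 1 without KL001 replicate 3. Hmox1 and Slc7a11 did not pass without DMSO replicate 1 (adjusted p = 0.0811 and 0.0769).

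Retinoic acid genes moved through Cyp26b1 and the receptor gene Rara, 2 of 10, and Rara (0.17) had overlapping groups and did not pass without DMSO replicate 1, DMSO replicate 3 or KL001 replicate 2 (adjusted p up to 0.238, without KL001 replicate 2). Of 14 genes listed as p53 targets, among them Trp53, the gene of p53 itself, 3 rose, where 3.22% of all tested genes rose. They were Eda2r (log2 change 0.35, SE 0.083, adjusted p = 0.00724), Sesn2 (0.11) and Trp53 (0.13), the last with overlapping groups. Without DMSO replicate 1 none of the 3 passed (adjusted p = 0.0697, 0.159 and 0.118), Sesn2 did not pass with no filter on low counts (0.117), and the count was 1 without DMSO replicate 3, KL001 replicate 1 or KL001 replicate 2. With the spread of the 6 libraries alone edgeR called 0 of these 14 and 0 of the 15 NRF2 genes, with 3 and 5 higher at an unadjusted p below 0.05, while DESeq2 on all libraries called 3 and 5. Of 18 NF-kB, cytokine and chemokine genes 3 rose and 1 fell, where 3.22% of all tested genes rose and 3.51% fell. Il1rl1, which encodes the interleukin 33 receptor, went from 84.5, 83.4 and 87.8 to 104, 98.7 and 106 CPM (log2 change 0.27, SE 0.049, adjusted p = 0.000550). Serpina3n (1.30) stayed below 1 CPM in every library and has close copies, so that its value is uncertain, and it did not pass without DMSO replicate 3 or KL001 replicate 1 (adjusted p = 0.0810 and 0.0713). Cxcl5 fell (-0.19) with overlapping groups, and not without DMSO replicate 1, DMSO replicate 3, KL001 replicate 1 or KL001 replicate 2 (adjusted p up to 0.188, without KL001 replicate 2). Of 16 interferon-stimulated genes edgeR called 0, with 1 higher and 1 lower at an unadjusted p below 0.05, and DESeq2 called 0.

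The same compound was tested in 3 further settings of the series (siCTRL and Dexa, siCop1 alone, siCop1 and Dexa), each with 3 DMSO and 3 KL001 libraries of its own. All 4 comparisons share 1 estimate of the spread but no library. Of the 994 genes called here, 614 (61.8%) were called in the same direction in siCTRL with Dexa, where 10.1% of all tested genes were called in the direction they had here. With siCop1 and no Dexa 375 genes (37.7%) were called in the same direction, against 3.98% of all genes. With siCop1 and Dexa there were 386 (38.8%), against 5.08%. Those settings had 1560 (10.6%), 604 (4.09%) and 807 (5.46%) calls of their own, of which the shared genes make up 39.4%, 62.1% and 47.8%. Calls in the opposite direction numbered 1, 0 and 4. In all 4 settings 266 genes were called, each in 1 direction throughout, 111 higher and 155 lower. Another 292 genes were called in siCTRL without Dexa and in none of the others.

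Whether the response differed between settings was tested with interaction terms. For the difference between KL001 with and without Dexa edgeR called 0 genes, with 888 (6.01%) at an unadjusted p below 0.05 and a smallest adjusted p of 0.0995, while DESeq2 called 3. For the difference between siCop1 and siCTRL edgeR called 0 genes, with 982 (6.65%) at an unadjusted p below 0.05 and a smallest adjusted p of 0.0608, while DESeq2 called 15. A missed threshold does not show that the responses were alike. With the length and GC correction 7 genes passed for Dexa and 26 for siCop1. Among them Nr1d1 differed with Dexa (by 0.34, adjusted p = 0.0361), and Tef (0.19, adjusted p = 0.00956), Dkk2 (0.39, adjusted p = 0.00626) and Grem1 (0.20, adjusted p = 0.0299) with siCop1. For Dexa, Adamts1 (0.21, adjusted p = 0.0278) and Serpina3n (-1.86, adjusted p = 0.0278) passed as well. Nr1d1 did not pass in DESeq2 or with a correction for length alone, while Serpina3n passed in both. Tef and Dkk2 also passed in DESeq2, each with an adjusted p of 0.0134.

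Cry1 was the gene of the clock lists that fell most in every setting, with log2 changes of -1.97 here, -1.74 in siCTRL with Dexa, -2.22 in siCop1 alone and -1.78 in siCop1 plus Dexa. Nr1d1 rose in all 4, by 0.66, 0.96, 0.75 and 0.98 in the same order. Per1 passed in both settings without Dexa (-0.20 and -0.20) and not in those with Dexa (0.019 and 0.0069, adjusted p = 0.782 and 0.951). Per3 passed here (-0.38) and in no other setting (-0.14, -0.15 and -0.085, adjusted p = 0.194, 0.244 and 0.581). The interaction terms of both genes did not pass in edgeR, in DESeq2 or with the length and GC correction. Of the 23 sterol genes 20 were higher in each of the other settings, where 4.98%, 1.77% and 2.5% of all genes were higher, with medians of 0.29, 0.28 and 0.34. Of the collagens 11 of 17 were lower in each of them, where 5.58%, 2.32% and 2.97% of all genes were lower.

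Replication genes and Ccnd1 passed in the siCTRL settings. Of the 25 E2F targets and mitosis genes 14 were higher in siCTRL with Dexa, with a median log2 change of 0.17. Among all tested genes 4.98% were higher there. In siCop1 edgeR called 0 of them without Dexa, with 2 higher and 1 lower at an unadjusted p below 0.05, and 0 with Dexa, with 2 higher and 0 lower, and DESeq2 called 0 in both. Mcm5 had log2 changes of 0.23 and 0.24 with siCTRL and of -0.00035 and 0.043 with siCop1. Ccnd1 had 0.25 and 0.24 with siCTRL and 0.050 and -0.014 with siCop1, and Hmga2 had 0.26 and 0.26 against 0.029 and -0.014. Eln passed in all 4 settings, with -0.56 here and -0.77, -1.19 and -1.24 in the others. Whether the difference between siCop1 and siCTRL passed for Hmga2, Ccnd1 and Eln depended on the fit. Hmga2 had a term of -0.23, for which edgeR gave an adjusted p of 0.0608, DESeq2 0.000861 and edgeR with the length and GC correction 0.000356. For Ccnd1 it was -0.20, with 0.122, 0.0254 and 0.00626 in the same order, and for Eln it was -0.63, with 0.106, 0.0218 and 0.0111. Of the E2F targets and mitosis genes Rrm2, chosen after its values were seen, passed in DESeq2 (0.0492) and with the correction (0.0367), where Mcm5 did not pass. Of the 73 ribosomal protein genes edgeR called 0 in siCTRL with Dexa, with 5 higher and 1 lower at an unadjusted p below 0.05 (DESeq2 called 1 higher), and it called 2 and 6 as higher in siCop1 without and with Dexa. In these siCop1 settings 1.77% and 2.5% of all tested genes were higher.

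**Figure D4:**
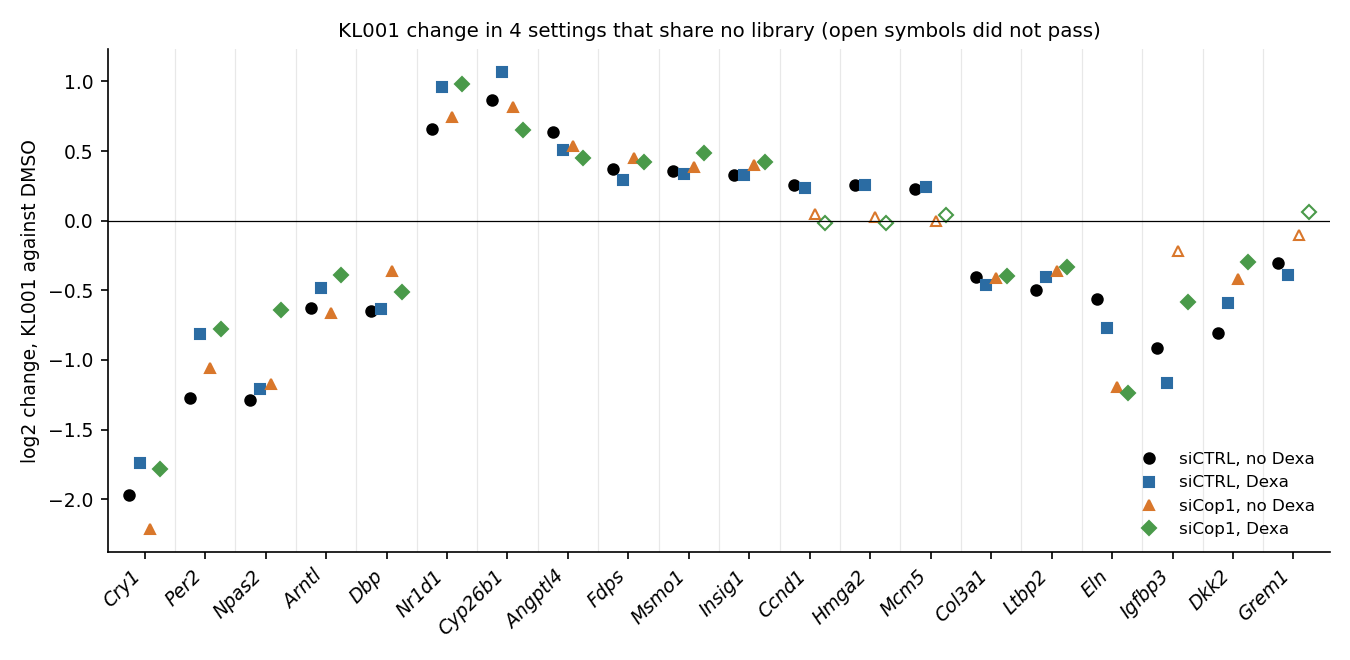
Log2 change between KL001 and DMSO of 20 genes in the 4 settings, which share no library, with 3 libraries in each group; filled symbols passed the test and open symbols did not. Cry1 lies lowest in every setting, from -1.74 to -2.22, while Ccnd1, Hmga2 and Mcm5 are filled in the siCTRL settings and open in the siCop1 settings.

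Transcript length moved with the calls. When tested genes were split into 5 classes of nearly equal size by their longest annotated transcript, 2.15% of the shortest class were higher and 1.26% lower, while 1.57% of the longest class were higher and 5.15% lower. The median log2 change went from 0.021 in the shortest to -0.029 in the longest class. The 6 libraries differed in this trend within their own groups: the median of the longest class lay at -0.097 log2 units in KL001 replicate 2 and at 0.066 in KL001 replicate 1, relative to the mean of the 6. A fit that removed each library's trend with length and GC content called 1649 genes, 859 higher and 790 lower. Of the 994 genes 964 were called there too, all in the same direction, 30 were lost and 685 were added. With this correction the longest class had 6.08% higher and 7.13% lower. Without DMSO replicate 1 and KL001 replicate 2, and with no correction, 626 genes were called, 298 higher and 328 lower.

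**Figure D5:**
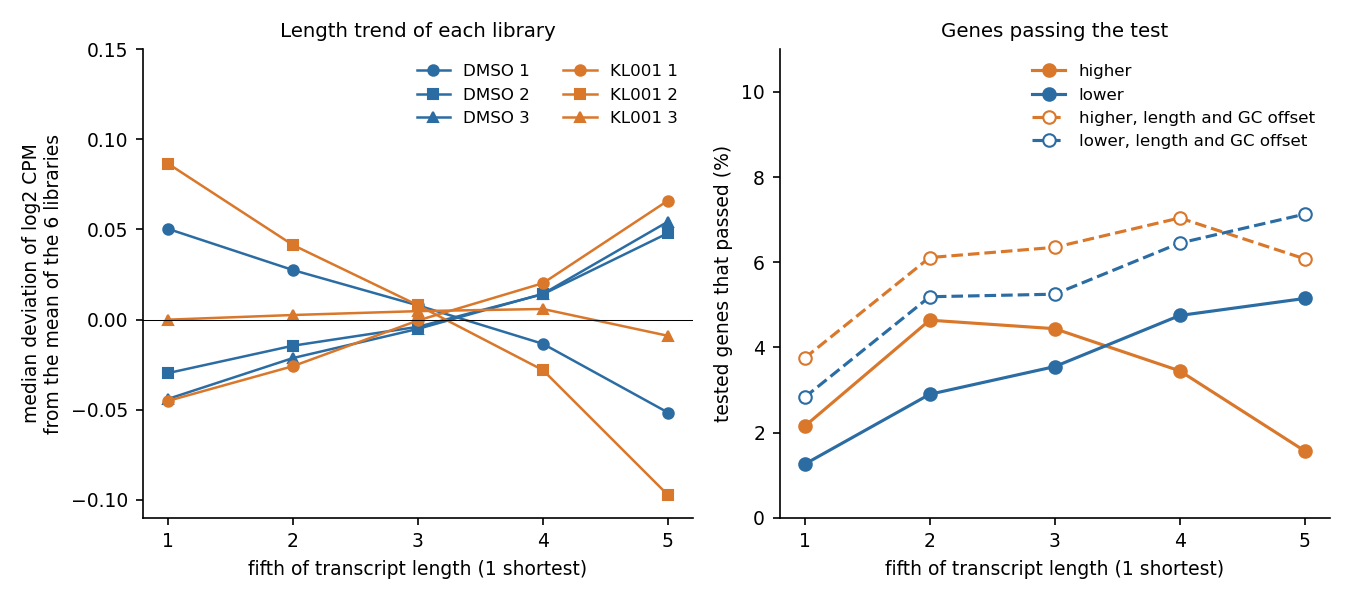
Left, median deviation of log2 CPM from the mean of the 6 libraries in each class of transcript length, per library (DMSO blue, KL001 orange). Right, percent of tested genes that passed as higher or lower in each class, as fitted (solid) and with the length and GC offset (dashed). DMSO 1 and KL001 2 fall with length, and the solid lines cross while the dashed lines stay within about 1 percentage point of each other.

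RNA of other cell types was low, and none of their markers passed. Squamous epithelium markers summed to 18.8 to 22.5 CPM with DMSO and to 12.1 to 17.0 CPM with KL001, the one list whose sums did not overlap between the groups apart from the fibroblast list. Airway epithelium markers summed to 34.7 to 61.7 and 29.4 to 81.0 CPM, macrophage markers to 6.48 to 8.50 and 6.80 to 12.3 CPM, endothelial markers to 3.03 to 4.22 and 2.44 to 3.50 CPM, and neural markers to 24.9 to 28.2 and 23.8 to 27.2 CPM. Skeletal muscle markers summed to 3.85 to 5.22 and 4.47 to 5.35 CPM, with counts of Acta1, Tnnt3, Chrna1 and Pax7. The other skeletal muscle markers Myod1, Myog, Myf5 and Myh3 had no count in the 6 libraries, and of the neural markers Sox10 had none. Over these lists and the heart muscle list edgeR called 0 genes, with 1 endothelial marker lower at an unadjusted p below 0.05, and DESeq2 called 0. With the spread of the 6 libraries alone 6 of the 9 tested squamous markers were lower at an unadjusted p below 0.05, and the keratin gene Krt13, which was chosen after its values were seen, passed as lower (log2 change -1.41, adjusted p = 0.00784). In the fit on all libraries 8 of the 9 had negative log2 changes, with a median of -0.82. The part of squamous RNA in the results was not tested. In bulk RNA fewer cells of a type and less RNA per cell cannot be told apart.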

How the data were processed

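Polyadenylated RNA of mouse embryonic fibroblasts was sequenced as stranded libraries with single reads, per the labels' protocols. The authors deposited raw counts per gene symbol, and the submitters' processing notes name bcl2fastq 1.8.4, STAR 2.4.5a, featureCounts, Subread 1.4.6-p3, Picard 1.126, DESeq2 and the builds GRCm38 and mm10, with no role or order. How reads of overlapping genes or close copies were counted is not given in the sources used here. The deposited normalized table was not used, and 0 sample columns were left over.

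Genes were kept by filterByExpr (minimum count 10, minimum total 15). All 24 libraries were fitted as 8 group means with edgeR 4.0.16 in R 4.3.3 (TMM scaling, robust quasi-likelihood test, two-sided, adjusted p below 0.05), so that the spread, a biological coefficient of variation of 3.71%, was shared by all groups. Standard errors are the unshrunk log2 change divided by the root of the F statistic, and CPM values are on the TMM scale. Between libraries of one group the chi-square per degree of freedom was 1.78 to 9.27, above counting noise, and none was treated as a duplicate. A level of 1 CPM rests on 23.8 to 27.7 counts in the 6 libraries, which limits genes near it.

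Longest transcript, GC content and gene positions came from GENCODE vM21 on GRCm38, matched by symbol for 99.2% of tested genes. The correction for them is an offset from natural splines with 4 degrees of freedom each, fitted per library on log2 CPM. The test was also run on simulated counts with the same spread for every gene and no trend with length or GC content. That run therefore cannot show how the test handles the trends of these libraries.

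Members and gene lists were chosen with earlier results of these data known. Named were all clock list genes, the 12 genes that rose and the 12 that fell most, at a mean of at least 1 CPM and without overlap, up to 3 genes of each direction in every other list, and Cop1. Some genes are not reported here, and of the 107 others so named 92 passed. Alternatives were RLE scaling, no filter, DESeq2 1.42.0, a replicate block, the 6 libraries alone, the length and GC offsets and leaving out libraries. Leaving out both DMSO replicate 1 and KL001 replicate 2, and the offset with the 6 libraries alone, were chosen after seeing the data.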

Additional observations from a re-analysis of the deposited data

How the results depend on the processing

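Of the 92 named genes that passed, 23 passed under every alternative run and 34 lost the call when at least 1 library was left out. The 994 calls became 1649 with the length and GC offset, 1644 with that offset and the replicate block, 225 (29.8% higher, against 47.9%) with the 6 libraries alone, 73 with the 6 alone and the replicate block, and 626 without both DMSO replicate 1 and KL001 replicate 2, while leaving out 1 library gave 653 to 1165, the lowest without DMSO replicate 3. Same-numbered libraries of the 2 groups did not deviate together (correlations of -0.63, -0.26 and 0.17), nor did every library correlate best with its own number. DMSO replicate 1 and KL001 replicate 2, which both fell with transcript length, had a correlation of 0.55. Because such trends enter these values, they cannot show whether the numbers pair the libraries. The replicate block on all 24 libraries gave 937 calls. Of the named genes it ended the calls of Mt2 (adjusted p = 0.0551, and 0.0901 with the length and GC offset added) and Timeless (adjusted p = 0.0568). With the 6 libraries alone the length and GC offset gave 987 calls. In the other settings the length and GC offset, without and with the replicate block, gave 2429 and 2422 calls (siCTRL with Dexa), 1055 and 1044 (siCop1 without Dexa, 909 with the length offset) and 1299 and 1291 (siCop1 with Dexa). The Dexa term gave 133 calls with no filter, 5 with the length offset, 7 with length and GC, 8 with the block added, 3 with DESeq2, 3 without both libraries and 0 to 3 without 1. The siCop1 term gave 61, 18, 26, 26, 15, 3 and 0 to 6 in the same order. Each reversal was of a gene that had not passed. With libraries left out (1, or the 2 named), the log2 changes ranged from -0.15 to 0.076 for Ciart, -0.11 to 0.030 for Bhlhe41, -0.13 to 0.055 for Clock, -0.55 to 0.047 for Fbxl21, -0.023 to 0.036 for Csnk1e, -0.0084 to 0.056 for Usp7 and -0.079 to 0.033 for Cop1. The length offset gave 0.0053 for Bhlhe41 and -0.0014 for Csnk1e. Cop1 (listed as Rfwd2) was at 0.0022 with the length and GC offset, 0.0030 with the replicate block added and 0.0027 with that offset in the 6 libraries alone. Values without both libraries were -0.022 for Csnk1e and 0.033 for Cop1. The cause was not tested.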

Other observations

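Of the 266 genes called in all 4 KL001 settings, 188 belonged to none of the gene lists. The genes below were picked from them after their values were seen and are given as values. Several encode secreted proteins of connective tissue. Postn (periostin) was measured at 779, 769 and 789.8 CPM with DMSO and at 507, 431 and 509 CPM with KL001 in siCTRL without Dexa, and changed by -0.69 here and by -0.48, -0.81 and -0.47 in siCTRL with Dexa, siCop1 and siCop1 with Dexa. The small leucine-rich proteoglycan gene Fmod (fibromodulin) went from 74.2, 70.6 and 74.7 to 47.9, 45.6 and 45.1 CPM, with changes of -0.66, -0.89, -0.94 and -1.10. Its relative Aspn (asporin) changed by -0.59, -0.56, -0.46 and -0.40. Penk, which encodes the precursor of enkephalin peptides, went from 363, 329 and 332 to 212, 212 and 202 CPM, with changes of -0.71, -1.01, -0.42 and -0.60. In these 4 genes no KL001 library reached a DMSO library in siCTRL without Dexa.

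Among the genes higher in all 4 settings, Cdsn, which encodes corneodesmosin, went from 457, 476 and 459 to 683, 696 and 634 CPM and changed by 0.53, 0.47, 0.44 and 0.49. Gpnmb, a lysosome and melanosome glycoprotein gene, went from 52.9, 52.4 and 52.0 to 75.1, 71.9 and 72.2 CPM, with 0.48, 0.40, 0.36 and 0.37. Enzyme genes of serine, glycine and cysteine metabolism outside the ATF4 list were also among them: Shmt2 (0.21 in siCTRL without Dexa), Psph (0.27) and Cth (0.34). Acat2 (0.25) and Aacs (0.27), which make the building blocks of sterols, rose beside the listed sterol genes.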
